A study of Medicago truncatula with 18 samples.

Results

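The genes described here are 150 of the 50444 genes measured in leaves of the legume *Medicago truncatula* (cultivar Jester). Their transcripts fell in the first hours of light in both short days and long days. Their mean levels in the 2 photoperiods lay within a set bound of each other at each time. They were chosen by their measured values. For each gene the mean abundance in TPM (transcript abundance scaled for transcript length and library size) was taken in each group, and a pseudocount of 1 TPM was added before ratios were taken on the log2 scale. In 39928 genes the ratio of long to short days lay between -0.5 and 0.5 at all 3 times. Among these, the members are the 150 genes with the lowest value of the larger of the 2 dawn ratios, which set ZT2 (2 h after lights on) against ZT0 (dawn) in each photoperiod. Because the rule used these values, the fall from ZT0 to ZT2 and the likeness of the photoperiods describe the members and are not findings about them.

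The 18 libraries were made from the first trifoliate leaf of vernalised plants (25 days at 4 °C) that were grown at 22 °C in short days (SD, 8 h light and 16 h dark) for 10 days and then either kept there or moved to long days (LD, 16 h light and 8 h dark). Each of the 6 groups (the ZT0, ZT2 and ZT4 leaves of each photoperiod) has 3 biological replicates, each a pool of 2 leaves from different plants. The ZT0 and ZT2 leaves came from experiment 1 (plants of 13 days, with 3 days in LD for the LD groups) and the ZT4 leaves from experiment 2 (plants of 15 days, with 5 days in LD), which also used another library kit (TruSeq in place of ScriptSeq). Time of day, plant age, days in LD and library kit therefore cannot be told apart in any comparison with ZT4.

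Leaf transcripts of many plant genes rise and fall daily. The circadian clock, an internal oscillator known best from *Arabidopsis thaliana*, sets part of this rhythm, and its morning-acting proteins repress genes that peak later in the day. Light itself, read by phytochromes and cryptochromes, sets another part, and genes active in the dark are commonly switched down when the lights come on. Photoperiodic flowering depends on where in this rhythm the light falls, and transcripts that follow dawn alike in both photoperiods can be set beside those that do not.

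Library totals ran from 18009808 to 23201592 estimated counts, the larger ones all at ZT4. Transcripts of the leaf were abundant in every library, with 5 described genes for the small chain of ribulose bisphosphate carboxylase, the carbon-fixing enzyme, summing to between 61600 and 113000 TPM, while 2 described leghemoglobin genes of the root nodule summed to at most 5.01 TPM. The library of SD ZT0 replicate 2 stood apart from its replicates (chi-square per gene of 68.8 and 77.4 against the others, which differed from each other by 6.23), and LD ZT0 replicate 3 did so to a lesser degree (41.1 and 52.9 against 13.1). The first of these was the lowest of its 3 libraries in 119 of the 150 members, and the second in 65. The same shares over all genes were not computed. Leaving either out of the rule kept 137 and 126 of the 150 members, respectively.

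At ZT0 the members had a median mean abundance of 11.4 TPM in SD and 10.7 TPM in LD. The same medians were 4.07 and 4.43 TPM at ZT2. The median member was at 36.7% of its ZT0 level in SD and at 42.1% in LD, with ranges of 0 to 55.4% and 4.25 to 56.2%. All 3 ZT2 libraries lay below all 3 ZT0 libraries in 99.3% of members in SD and 97.3% in LD. The fitted fold change called 148 members lower at ZT2 in SD and 97.3% of them in LD, where 17.6% and 13.2% of the 31363 genes tested were called lower. These counts and the separation of the libraries follow from the choice of members, and the share of all genes so separated was not computed. The fitted fall was larger in SD than in LD in 109 members, and it exceeded 2-fold in 127 members in SD and in 98 in LD. Shares over all genes were not computed for these folds. More of all genes tested were also called lower in SD (17.6%) than in LD (13.2%).

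**Figure D1:**
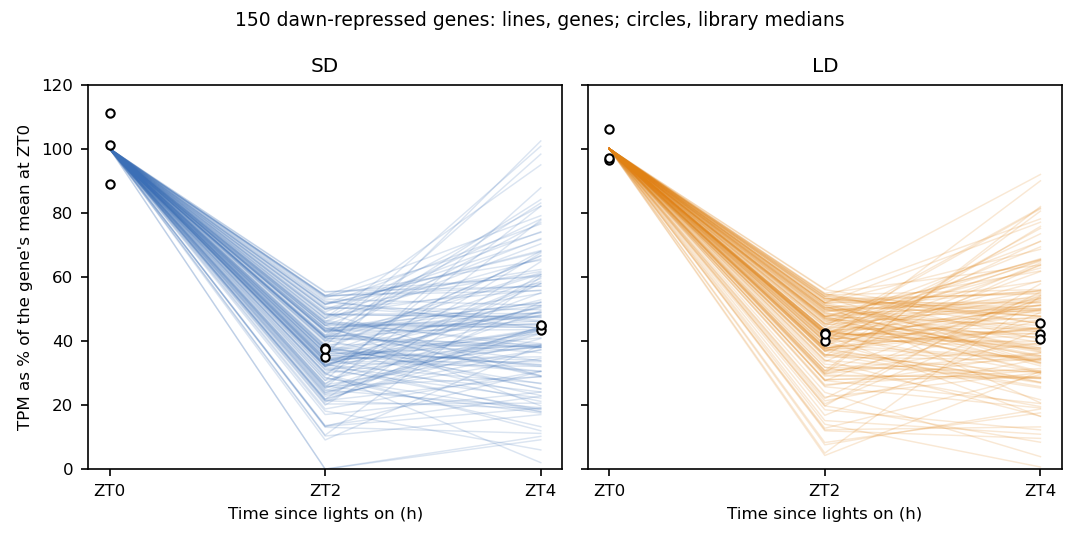
TPM of each of the 150 members as a percentage of its own mean at ZT0 (y axis) at ZT0, ZT2 and ZT4 (x axis, hours since lights on) in SD and LD. Lines are genes (group means) and open circles are the medians over members in each library, which lie between 35.0 and 37.7% at ZT2 in SD, between 40.1 and 42.4% at ZT2 in LD, and between 40.7 and 45.7% at ZT4.

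The median over members of each library, relative to the ZT0 mean, was in SD 36.7% ± 1.48 (SD, n = 3) at ZT2 and 44.3% ± 0.872 at ZT4, and the ZT4 libraries lay above the ZT2 libraries. In LD it was 41.5% ± 1.23 at ZT2 and 42.8% ± 2.59 at ZT4, and these libraries overlapped. The spread at ZT0 was the widest in SD, where the library medians ran from 88.8 to 111%. The lowest of these was replicate 2, the library that stood apart.

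The member lowest on the rule was *Medtr5g018770*, with a larger dawn ratio of -2.55. It had 29.3, 20.7 and 17.3 TPM in the SD libraries at ZT0 and 3.74, 2.31 and 2.92 TPM at ZT2. In LD it had 25.9, 25.1 and 22.4 TPM at ZT0 and 1.67, 1.87 and 2.55 TPM at ZT2. Its ZT0 and ZT2 libraries did not overlap in either photoperiod, and the fitted fall was 7.32-fold in SD and 11.2-fold in LD. The gene stayed low at ZT4, at 4.26 ± 0.665 TPM in SD and 4.30 ± 1.31 TPM in LD (SD, n = 3), the latter 2.09-fold above ZT2 (edgeR adjusted p = 0.00442).

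*Medtr1g081240*, second on the rule, had 21.4, 19.4 and 19.9 TPM at ZT0 in SD and 4.90, 3.97 and 4.22 TPM at ZT2. Its LD libraries had 20.4, 23.9 and 19.7 TPM at ZT0 and 2.88, 3.96 and 3.90 TPM at ZT2. It then rose at ZT4 to 8.77, 8.64 and 8.88 TPM in SD and to 8.10, 11.5 and 8.31 TPM in LD. Every ZT4 library was thus above every ZT2 library and below every ZT0 library. The rise was 2.05-fold in SD (adjusted p = 6.72e-06) and 2.87-fold in LD (adjusted p = 5.43e-08, both by edgeR).

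*Medtr2g078370* was the third, and the scarcest of the first 5. It fell from 4.07 ± 0.645 to 0.369 ± 0.259 TPM in SD and from 3.28 ± 0.410 to 0.163 ± 0.109 TPM in LD (SD, n = 3). With at most 8 counts in a ZT2 library in SD and 4 in LD, its level there was close to the limit of detection. By contrast *Medtr4g086600*, the fourth, was abundant at ZT0, with 119 ± 26.9 TPM in SD and 155 ± 12.3 TPM in LD (SD, n = 3; the lowest library was SD replicate 2, at 92.3 TPM). At ZT2 it had 34.5, 29.8 and 37.1 TPM in SD and 28.6, 28.3 and 29.2 TPM in LD, and it continued to fall to between 16.8 and 23.4 TPM over the 6 libraries at ZT4. The fifth, *Medtr2g063510*, fell from 17.3 ± 2.70 to 4.6 ± 0.178 TPM in SD and from 20.6 ± 4.91 to 4.55 ± 0.672 TPM in LD.

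The other 5 of the first 10 spanned a wide range of levels. *Medtr8g006430* had 168, 114 and 145 TPM at ZT0 in SD and 47.6, 44.5 and 46.5 TPM at ZT2. *Medtr2g034360* fell 3.68-fold in SD, where its ZT0 libraries were spread from 31.8 to 70.3 TPM, and 2.92-fold in LD. *Medtr3g104940* fell 7.44-fold in SD and 6.0-fold in LD from ZT0 levels of only 3.21 and 4.30 TPM. None of these 3 genes was higher at ZT4 than at ZT2 by the test. *Medtr8g006430* was lower in both photoperiods (log2 -0.37 in SD and -0.42 in LD, edgeR adjusted p = 0.0083 and 0.00335). *Medtr2g034360* was lower in LD (1.72-fold, edgeR adjusted p = 0.0148), a call lost without LD ZT2 replicate 3 or LD ZT4 replicate 3. *Medtr7g112400* fell 3.80-fold in SD and 3.03-fold in LD and *Medtr3g101590* 4.63-fold and 3.34-fold, and both were a little higher at ZT4 than at ZT2 in SD (1.69-fold and 1.33-fold, edgeR adjusted p = 0.0151 and 0.0156). *Medtr7g112400* was higher in LD too (1.67-fold, edgeR adjusted p = 0.0147). These calls were lost without SD ZT2 replicate 2, SD ZT4 replicate 1 or LD ZT4 replicate 1 for *Medtr7g112400*, and without SD ZT2 replicate 2 or 3 or SD ZT4 replicate 2 for *Medtr3g101590*. None of these 10 genes has a description in the sources used here.

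**Figure D2:**
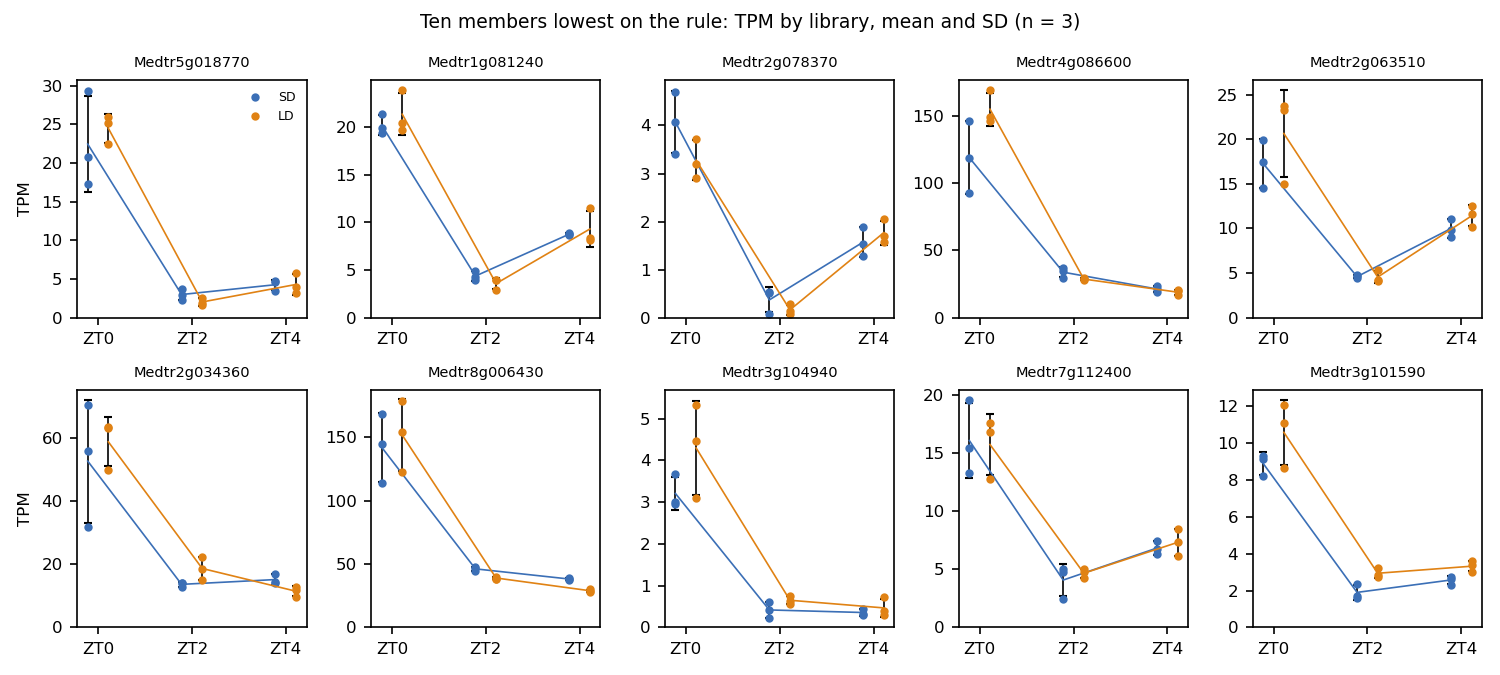
TPM (y axis) of the 10 members lowest on the rule at ZT0, ZT2 and ZT4 (x axis) in SD (blue) and LD (orange). Points are libraries, bars are the SD about the mean (n = 3), and lines join means. *Medtr1g081240*, *Medtr2g078370* and *Medtr2g063510* turn upward after ZT2, while *Medtr4g086600* and *Medtr8g006430* fall further.

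The most abundant member was *Medtr1g078030*. It had 1564, 1087 and 1464 TPM at ZT0 in SD and 1141, 1190 and 1028 TPM in LD. At ZT2 it had 461, 425 and 505 TPM in SD and 455, 454 and 527 TPM in LD, which is 33.8 and 42.8% of the ZT0 mean. It was at ZT4 still at 534 ± 18.8 TPM in SD and 424 ± 21.6 TPM in LD, and neither value differed from ZT2 by the test (edgeR adjusted p = 0.418 and 0.217).

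*Medtr4g059390*, the second in abundance, behaved otherwise. It had 269 ± 17.0, 139 ± 19.7 and 206 ± 6.98 TPM at ZT0, ZT2 and ZT4 in SD and 320 ± 15.8, 126 ± 1.35 and 288 ± 31.6 TPM in LD (SD, n = 3). The LD libraries at ZT4 (303, 309 and 251 TPM) all lay above those at ZT2 (128, 126 and 125 TPM) and below those at ZT0 (312, 338 and 310 TPM). The rise from ZT2 to ZT4 was 1.38-fold in SD (adjusted p = 0.00029) and 2.27-fold in LD (adjusted p = 1.87e-09, both by edgeR).

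The next in abundance were *Medtr8g081620*, *Medtr2g105010* and *Medtr4g101090*, whose ZT0 means lay between 110 and 243 TPM. *Medtr8g081620* went from 243 ± 46.4 to 82.2 ± 11.1 TPM in SD and from 223 ± 22.9 to 116 ± 9.22 TPM in LD. *Medtr2g105010* went from 138 ± 17.4 to 62.9 ± 8.19 TPM in SD and from 167 ± 16.0 to 76.0 ± 10.1 TPM in LD. *Medtr4g101090* went from 110 ± 16.5 to 59.7 ± 5.45 TPM in SD and from 136 ± 14.6 to 68.4 ± 2.04 TPM in LD. At ZT4 *Medtr4g101090* was higher than at ZT2 in SD (1.38-fold, edgeR adjusted p = 0.000567), and *Medtr8g081620* was lower in LD (1.43-fold, edgeR adjusted p = 0.0113), a call lost without LD ZT2 replicate 3 or LD ZT4 replicate 2 or 3. These genes form the upper end of a mostly scarcer set, since 13 members exceeded 50 TPM at ZT0 in both photoperiods.

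A description was at hand for 9 of the 150 members, 2 of them as hypothetical proteins. The descriptions were taken from shortened copies of the supplementary tables and from the candidate gene lists. In all, 4414 of the 50444 genes had a description here. The full tables hold more genes, so a member without a description here may have one there. Most of those tables list genes that differed between SD and LD, and only part of their content was used. The described members are therefore not a fair sample of the set. All 8 of those outside the candidate list had a higher mean in LD than in SD at ZT0, for example.

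**Figure D3:**
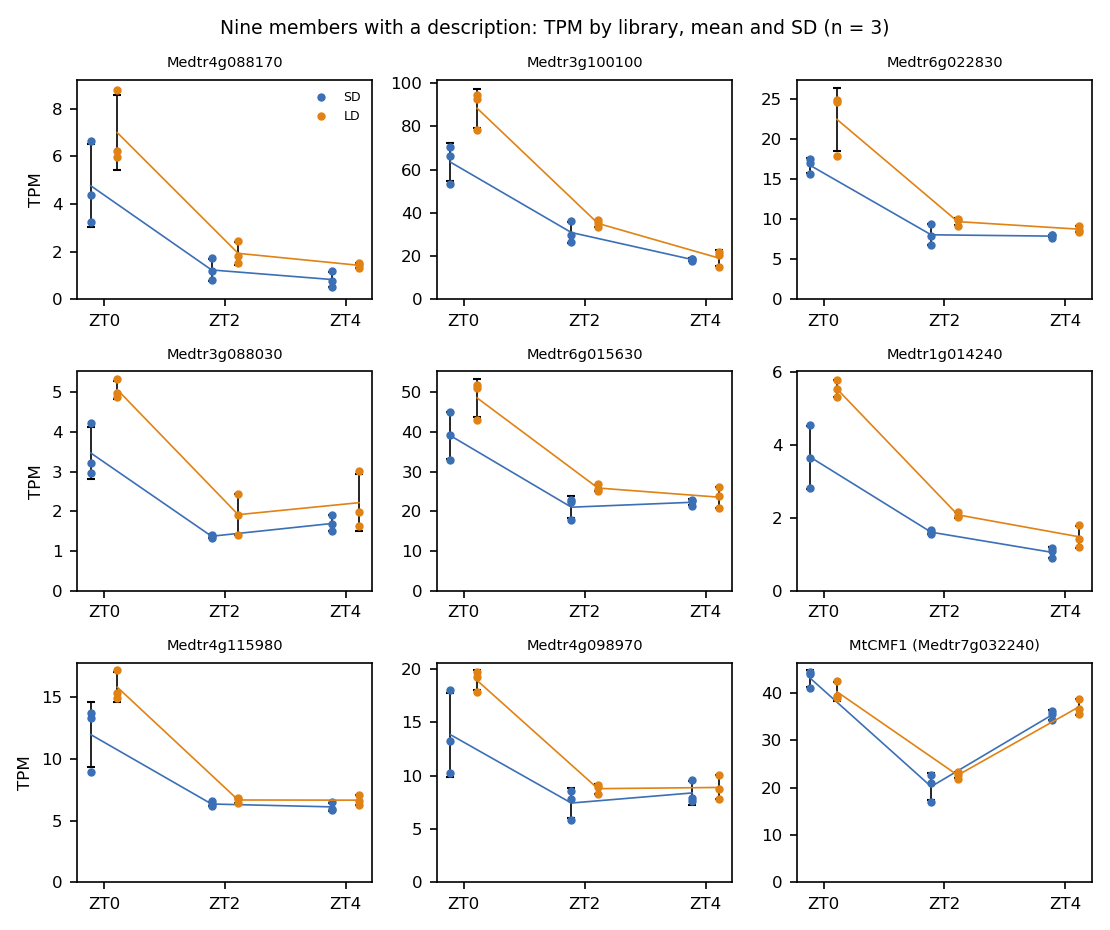
TPM (y axis) of the 9 described members at ZT0, ZT2 and ZT4 (x axis) in SD (blue) and LD (orange), with points for libraries, bars for the SD about the mean (n = 3) and lines joining means. *MtCMF1* alone of the 9 returned most of the way at ZT4, to 35.3 TPM in SD and 37.0 TPM in LD.

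*MtCMF1* (*Medtr7g032240*) encodes a CCT motif protein. The CCT motif is shared by CONSTANS and by several clock proteins of *Arabidopsis*, in which it takes part in contacts with DNA-binding partners. The gene had 43.9, 40.9 and 44.2 TPM at ZT0 in SD and 42.5, 38.8 and 39.3 TPM in LD. At ZT2 the values were 22.7, 17.0 and 20.9 TPM in SD and 23.2, 21.9 and 22.7 TPM in LD, below every ZT0 library. At ZT4 they were 34.3, 35.4 and 36.2 TPM in SD and 35.5, 36.6 and 38.7 TPM in LD, above every ZT2 library. The fitted rise was 1.75-fold in SD (log2 0.81, SE 0.09, adjusted p = 3.97e-07) and 1.76-fold in LD (log2 0.81, SE 0.09, adjusted p = 3.44e-07, both by edgeR). At ZT4 it stood at 82.1% of its ZT0 level in SD and 91.9% in LD. The fitted fall from ZT0 to ZT2 was log2 -1.04 (SE 0.09) in SD and -0.70 (SE 0.09) in LD. The study lists *MtCMF1* among the genes whose pattern over time differed between the photoperiods.

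The other described members stood between 17.5 and 60.6% of ZT0 at ZT4. *Medtr4g088170* is described as a flavone synthase of the cytochrome P450 family, which would act in flavonoid synthesis, and had 4.4, 6.66 and 3.24 TPM at ZT0 in SD and 1.74, 0.797 and 1.17 TPM at ZT2. In LD it had 8.79, 6.24 and 5.95 TPM at ZT0 and 2.45, 1.81 and 1.53 TPM at ZT2. It was at 17.5% of ZT0 in SD and 20.4% in LD at ZT4. *Medtr4g115980* is described as a prephenate dehydrogenase, an enzyme type of tyrosine synthesis, and went from 12 ± 2.64 to 6.35 ± 0.2 TPM in SD and from 15.8 ± 1.22 to 6.67 ± 0.226 TPM in LD. It held that level at ZT4 (6.11 ± 0.346 and 6.66 ± 0.394 TPM), without a difference by the test (edgeR adjusted p = 0.471 and 0.762).

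*Medtr6g015630*, described as dihydrofolate reductase-thymidylate synthase-like, belongs to an enzyme type that links folate use to the making of thymidylate for DNA. It went from 39.1 ± 5.95 to 21.1 ± 2.75 TPM in SD and from 48.6 ± 4.87 to 25.9 ± 0.854 TPM in LD. *Medtr1g014240*, a lectin receptor kinase, belongs to membrane proteins that pass signals from the cell surface. It went from 3.66 ± 0.862 to 1.61 ± 0.0473 TPM in SD and from 5.53 ± 0.231 to 2.08 ± 0.0742 TPM in LD, and it fell further at ZT4 in SD (1.48-fold, edgeR adjusted p = 0.00712). *Medtr3g100100* encodes a TPR domain protein and *Medtr6g022830* an ankyrin repeat protein, both kinds of repeat being surfaces for contacts between proteins. The TPR gene went from 88.4 ± 8.92 to 35.2 ± 1.61 TPM in LD and the ankyrin gene from 22.5 ± 3.93 to 9.72 ± 0.469 TPM. The hypothetical proteins *Medtr3g088030* and *Medtr4g098970* were at 37.9 and 46.4% of their ZT0 level at ZT2 in LD.

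The word lists for photosynthesis, starch and sugar, transcription factors, hormones, stress, translation, RNA processing, transport, cell wall, protein turnover, lipids and disease resistance matched 0 members. The kinase list matched *Medtr1g014240* and the cytochrome P450 list *Medtr4g088170*. With 141 members undescribed these counts say little about what the members do.

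The candidate photoperiod genes of the study give a view that does not depend on those descriptions. Of its candidates 138 were tested, and 17 were called lower at ZT2 than at ZT0 in both photoperiods, where 7.88% of all genes tested were. In SD 38 candidates were lower and 34 higher, and in LD 40 were lower and 40 higher. Over all genes tested 17.6% were lower and 17.9% higher in SD, and 13.2% and 11.5% in LD. Of the 17, 6 lay within the photoperiod bound, and *MtCMF1* alone of them fell far enough to be a member, at place 148. The next was *MtCOLc* (*Medtr3g105710*), a zinc finger CONSTANS-like gene, at place 234, which went from 95.0 to 38.8 TPM in SD and from 75.8 to 46.0 TPM in LD. *MtCOLg* and *MtCOLi*, of the same family, stood at places 506 and 951. The remaining pair, *MtCBL10* (a transcription factor by its description) and an NF-YB-like gene (*Medtr3g058980*, of the NF-Y factors that bind CCAAT boxes), stood at places 371 and 945. The study lists *MtCMF1*, *MtCOLc*, *MtCOLg* and the NF-YB-like gene as changing their pattern over time between the photoperiods, but not *MtCOLi* or *MtCBL10*. Of the 25 clock and photoreceptor genes tested, 6 were lower at ZT2 in SD and 9 in LD, with 3 lower in both, while 11 were higher in SD and 9 in LD (17.9% and 11.5% of all genes tested were higher). Only 3 genes of this class lay within the bound, and 0 of them were among the 3 lower in both.

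At ZT4 some members were higher than at ZT2 and others lower. Between ZT2 and ZT4, 45 members were called higher and 20 lower in SD, and 34 higher and 25 lower in LD (edgeR's quasi-likelihood test, adjusted p under 0.05). Over all genes tested 17.4% were called higher and 14.5% lower in SD, and 9.08% and 12.2% in LD. Members were thus called higher more often than the background (22.7% of them in LD). The shares called lower, 13.3% in SD and 16.7% in LD, were nearer the background. Without LD ZT2 replicate 3, 16 members were called lower in LD. Among the 21091 genes that passed edgeR's expression filter, 27% were called higher in SD and 15.2% in LD, beside 47 and 44 of the 144 members that passed (32.6 and 30.6%). The median log2 fold change of the members was 0.19 in SD and 0.08 in LD, beside 0.021 and 0 over all genes tested. These comparisons share the ZT2 libraries with the rule, which chose members for low values there, and ZT4 came from the other experiment.

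**Figure D4:**
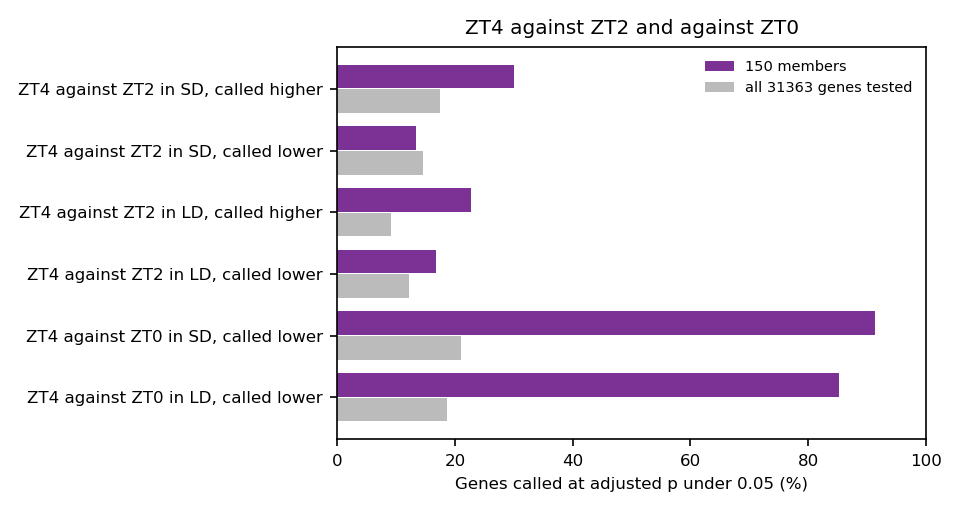
Share (x axis, percent) of the 150 members (purple) and of all genes tested (grey) called by edgeR at an adjusted p under 0.05 in each comparison of ZT4 (y axis). Members exceed the background most in the comparison with ZT0, at 91.3% against 21.1% in SD and 85.3% against 18.7% in LD, a time at which the rule chose them for high values.

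Taking the photoperiods together, 25 members (16.7%) were higher at ZT4 than at ZT2 in both, where 5.33% of all genes were, and 14 (9.33%) were lower in both, where 7.03% were. In 66 members no change was called in either photoperiod. Of the remaining 45, 20 were higher in SD alone, 8 higher in LD alone, 5 lower in SD alone and 11 lower in LD alone. Shares over all genes were not computed for calls in neither photoperiod or in a single one. *Medtr5g009000* was called in opposite directions, lower in SD (1.27-fold, edgeR adjusted p = 0.0366) and higher in LD (1.35-fold, edgeR adjusted p = 0.0107). The difference between the photoperiods was not tested, since the rule had bounded it.

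**Figure D5:**
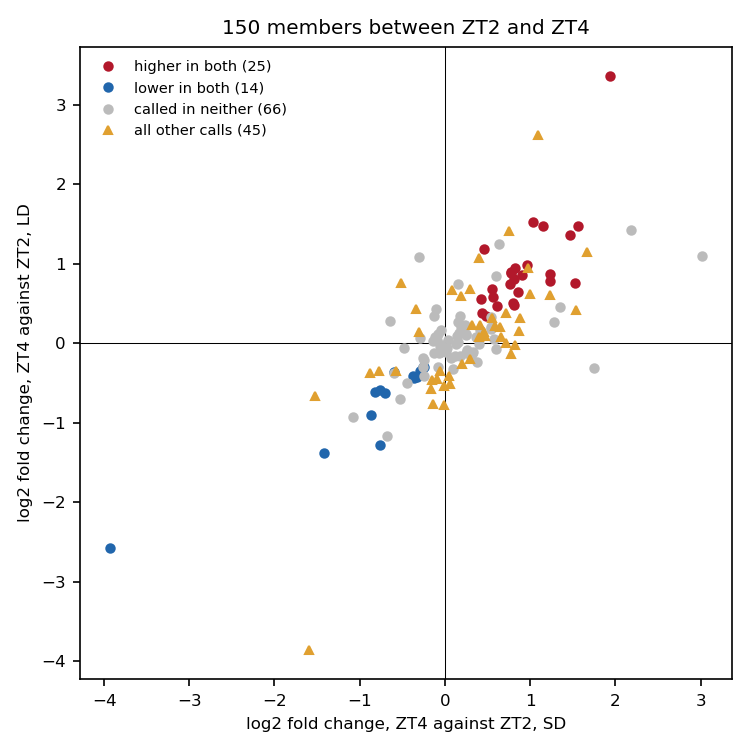
Fitted log2 fold change from ZT2 to ZT4 in SD (x axis) and LD (y axis) for the 150 members, with the 25 called higher in both photoperiods in red, the 14 called lower in both in blue, the 66 called in neither in grey and the other 45 as triangles. *Medtr2g078370* (1.94 and 3.36) is the highest red point and *Medtr4g076430* (-3.93 and -2.58) the lowest blue point.

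Among the 25 risers, *Medtr2g078370* rose most. It had 0.504, 0.533 and 0.0713 TPM at ZT2 in SD and 1.90, 1.29 and 1.53 TPM at ZT4. In LD it had 0.134, 0.0719 and 0.283 TPM at ZT2 and 1.70, 2.05 and 1.57 TPM at ZT4. No ZT4 library overlapped a ZT2 library, and the fitted rise was 3.83-fold in SD (adjusted p = 0.000473) and 10.3-fold in LD (adjusted p = 4.4e-06, both by edgeR), from few counts at ZT2.

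*Medtr8g023150* came back, of the 5 largest rises, nearest to its starting level. It had 6.85, 6.56 and 6.52 TPM at ZT0, 1.83, 1.95 and 1.72 TPM at ZT2 and 6.15, 5.77 and 5.58 TPM at ZT4 in SD. In LD it had 6.38, 5.04 and 6.82 TPM at ZT0, 2.34, 1.92 and 1.19 TPM at ZT2 and 4.26, 5.60 and 5.08 TPM at ZT4. The dip at ZT2 was thus clear of both other times, and the rise was 2.96-fold in SD (adjusted p = 5.28e-07) and 2.77-fold in LD (adjusted p = 1.28e-06, both by edgeR). At ZT4 it was at 87.8% (SD) and 81.9% (LD) of ZT0.

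*Medtr2g063510* rose from 4.6 ± 0.178 to 9.99 ± 1.06 TPM in SD (2.22-fold, edgeR adjusted p = 3.15e-05) and from 4.55 ± 0.672 to 11.4 ± 1.18 TPM in LD (2.77-fold, edgeR adjusted p = 1.32e-06). *Medtr1g042820*, with at most 11 counts in a ZT2 library, rose 2.77-fold in SD (edgeR adjusted p = 0.0184) and 2.57-fold in LD (edgeR adjusted p = 0.015). Its call was lost when SD ZT2 replicate 2 or 3 or SD ZT4 replicate 1 or 3 was left out in SD, and LD ZT2 replicate 3 or LD ZT4 replicate 2 in LD. *Medtr1g081240*, described above, was the other of these 5.

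Among the 14 that fell further, *Medtr4g076430* fell most. It had 2.20, 3.08 and 2.34 TPM at ZT2 in SD and 0.143, 0.298 and 0.0716 TPM at ZT4. The LD libraries had 1.71, 0.962 and 3.59 TPM at ZT2 and 0.620, 0.296 and 0.0990 TPM at ZT4. It was left with 2.01% of its ZT0 level in SD and 3.88% in LD, with at most 18 counts in a ZT4 library. The fall was 15.2-fold in SD (adjusted p = 0.000635) and 5.96-fold in LD (adjusted p = 0.00819, both by edgeR). Its LD libraries at ZT0 were spread from 1.95 to 13.2 TPM, replicate 3 being the lowest, and its LD call was lost without LD ZT2 replicate 3 or LD ZT4 replicate 3.

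*Medtr3g107890* had 12.3, 11.4 and 16.3 TPM at ZT2 in SD and 6.17, 4.59 and 5.42 TPM at ZT4. Its LD libraries had 14.4, 17.2 and 16.4 TPM at ZT2 and 8.02, 5.22 and 5.59 TPM at ZT4. The libraries did not overlap, and the falls of 2.67-fold in SD (adjusted p = 4.47e-06) and 2.60-fold in LD (adjusted p = 3.59e-06, both by edgeR) were alike. The TPR domain gene *Medtr3g100100* fell 1.82-fold in SD and 1.87-fold in LD (edgeR adjusted p = 6.25e-06 and 2.91e-06), to 18.4 ± 0.515 and 19.1 ± 3.62 TPM. *Medtr2g044880* fell 1.70-fold in SD and 2.42-fold in LD and *Medtr1g050720* 1.63-fold and 1.55-fold, to between 2.32 and 4.4 TPM over their ZT4 libraries. *Medtr4g086600* and *Medtr8g006430* of the first 10 also fell further in both photoperiods.

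By ZT4 most members had not regained their dawn level. They stood at a median of 44.3% of ZT0 in SD and 43.7% in LD, with ranges of 2.01 to 102% and 0.647 to 91.9%. The test called 137 members lower at ZT4 than at ZT0 in SD and 128 in LD, beside 21.1% and 18.7% of all genes tested, and 126 in both. In 11 members ZT4 was not called lower than ZT0 in either photoperiod, among them *Medtr8g023150*, *Medtr1g042820* and *Medtr7g092870*. At the extremes, 9 members in SD and 6 in LD stood at 80% or more of ZT0, and 16 and 13 at 20% or less. Shares over all genes were not computed for the counts in both or in neither photoperiod, or for these extremes. The ZT0 libraries had entered the rule, and the part of that choice in these counts was not tested.

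The photoperiods were alike in the members by choice, yet not equal. LD differed from SD in 31 members at ZT0, 26 at ZT2 and 31 at ZT4 (edgeR adjusted p under 0.05), where 29.6%, 20.6% and 29.3% of all genes tested did. At ZT0 26 of the 31 were lower in LD, at ZT2 15 of the 26 were higher, and at ZT4 17 of the 31 were lower. With DESeq2, its size factors, a length offset or the expression filter, the side with more calls changed at ZT4 alone. The share of called members lower in LD was 81.8 to 90.6% at ZT0 and 31.8 to 44.8% at ZT2. Over all members, called or not, the median log2 ratio of LD to SD at ZT0 was -0.14 in the fit (0 over all genes tested). It was -0.0076 in mean TPM, where 75 of the 150 were lower in LD. At ZT4 edgeR with DESeq2's size factors called 12 lower and 15 higher, and at ZT2 DESeq2 itself called 7 lower and 15 higher. Without SD ZT4 replicate 3, 19 members differed at ZT4, and without SD ZT0 replicate 2, 22 differed at ZT0. Most fitted folds were small, but they were above 1.5 in 6, 20 and 13 members at the 3 times. The fitted log2 ratios ran from -0.729 to 0.632 at ZT0, from -1.23 to 2.78 at ZT2 and from -2.22 to 1.01 at ZT4. Those at ZT2 and ZT4 thus went well past the rule's bound, which was set on mean TPM with a pseudocount of 1 TPM. In 84 members no difference was called at any time. Shares over all genes were not computed for this count or for the folds above 1.5. *Medtr4g132590* was called at all 3 times, with means of 8.52, 3.41 and 5.18 TPM in SD and 5.79, 2.75 and 3.78 TPM in LD.

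The members were of middling abundance, in part by choice, since a fall of the size required with a pseudocount of 1 TPM leaves out the scarcest genes and no member had a ZT0 mean under 1.11 TPM. Their median over the 18 libraries was 6.77 TPM, beside 2.04 TPM over all genes tested and 5.94 TPM over the genes that passed the expression filter, which 144 members did. Their median effective length, relative to the median gene of each library, was 0.92, equal to that of all genes tested (0.922) and below that of the genes passing the filter (1.10). The SD of log2(TPM + 1) between replicates had a median of 0.181 at ZT0 in SD and 0.091 at ZT4 in SD, beside 0.155 and 0.0789 among the genes that passed the filter. In 37 members the ZT0 mean was under 5 TPM in 1 or both photoperiods. In 8 members every library of some group had 3 counts or fewer, so the size of their fall is not known. Among these were *Medtr4g046153* and *Medtr4g072910*, with 0 counts in every ZT2 library in SD.

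By their identifiers the members are spread over all 8 chromosomes, with 26 on chromosome 4, 22 on chromosome 3, 20 on chromosome 1 and 7 on chromosome 6, and 5 on unplaced scaffolds. These shares (17.3, 14.7, 13.3, 4.67 and 3.33%) were near those of all genes tested (15.6, 13.6, 13.9, 6.68 and 3.51%). In the order of identifiers 10 pairs of consecutive members lay within 10 places of each other, and 5 pairs did among the 150 genes chosen by the mirrored rule (induced at dawn, within the same bound). The rule required a fall of every member, so a fall in both genes of a pair is no result. *Medtr7g112400* and *Medtr7g112403* were adjacent, and fell from 16.1 to 4.08 and from 26.7 to 7.98 TPM in SD. *Medtr4g073490* and *Medtr4g073510*, also adjacent, fell from 23.6 to 11.8 and from 11.6 to 5.07 TPM in SD. *Medtr2g063560*, next to *Medtr2g063510*, fell from 1.25 to 0.166 TPM in SD. Whether such neighbours are similar copies that share reads was not tested.

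The mirrored genes were also set against ZT4. Of these 150, 18 were called higher and 82 lower at ZT4 than at ZT2 in SD, and 23 higher and 68 lower in LD, with a median log2 fold change of -0.52 in SD and -0.30 in LD. In the members the medians were 0.19 and 0.08, so that the medians of both sets lay on the side of a return towards ZT0. Both sets were chosen on the ZT2 libraries, and the part of that choice in these values was not tested.

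The last genes inside the rule were *Medtr7g092870* (larger dawn ratio -0.801) and *Medtr5g020760* (-0.799), and the first outside were *Medtr1g028370* (-0.799) and *Medtr8g027890* (-0.798). *Medtr7g092870* went from 2.08 to 0.454 TPM in SD and from 2.21 to 0.843 TPM in LD. *Medtr5g020760* went from 1.85 to 0.638 TPM in SD and from 1.94 to 0.382 TPM in LD. *Medtr1g028370* went from 2.93 to 0.665 TPM in SD and from 3.08 to 1.34 TPM in LD, and *Medtr8g027890* from 16.2 to 8.86 TPM and from 20.2 to 11.2 TPM. No gap separates the members from the genes that follow them.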

How the data were processed

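The authors trimmed paired reads with BBDuk, quantified them with Salmon 0.8.2 against the Mt4.0v2 transcripts and summed them per gene with tximport. The deposited files hold estimated counts, which were rounded here, and TPM made by the authors from the same quantification, for 50444 genes in 18 libraries.

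Members were chosen on mean TPM. Calls came from edgeR 4.0.16 (R 4.3.3) by its quasi-likelihood test with TMM scaling, in 1 fit of the 6 groups over the 31363 genes with a total count above 1. Adjustment (Benjamini-Hochberg) ran over both photoperiods (for the contrasts of times) or all 3 times (for LD against SD), with a threshold of 0.05 on the adjusted p and a prior count of 0.125 for fold changes. The fits were tried on simulated counts, with the same dispersion for every gene, for the contrast of ZT4 with ZT2 in SD. The choice of members and the other contrasts were not tested in this way. Library totals were 18009808 to 23201592. No replicates agreed within sampling noise, and p-values measure the spread between pools of plants.

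The alternatives were DESeq2 1.42.0, its size factors, other filters, a length offset, the replicate number as a block, each library left out, a fold and count minimum, other pseudocounts, and each experiment alone. Members chosen without SD ZT0 replicate 2 or LD ZT0 replicate 3 were added after seeing the data.

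The members and the gene lists were chosen with earlier results of these data known. Genes were named by a fixed rule, as the 10 lowest on the members' rule, the 5 most abundant, the 5 largest rises and 5 largest falls from ZT2 to ZT4 among genes called in both photoperiods, the 2 genes on either side of the rank limit, and candidates or listed genes. All other genes named were chosen after their values were seen. Descriptions came from shortened copies of the supplementary tables and from the candidate gene lists. The authors' fold changes and p-values in them were not used. No identifier (0 of 50444) matched the RefSeq table, so sequences and coordinates were not used here.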

Additional observations from a re-analysis of the deposited data

Results flagged for a closer look

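In 3 members every ZT4 library lay on one side of every ZT2 library in SD and on the other side in LD. The share of all genes that did so was not computed, so this count is not a result about the members. The difference between photoperiods was not tested, since the rule that chose the members had bounded it.

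*Medtr7g092540* had 2.40, 1.79 and 1.80 TPM at ZT2 and 1.18, 1.62 and 1.49 TPM at ZT4 in SD, a log2 fold change of -0.51 (edgeR adjusted p = 0.0541). In LD it had 1.62, 0.989 and 1.53 TPM at ZT2 and 2.42, 2.49 and 1.77 TPM at ZT4, a log2 fold change of 0.75 (edgeR adjusted p = 0.0048).

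*Medtr1g078030*, the most abundant member, had log2 fold changes of 0.11 in SD and -0.16 in LD, neither called. *Medtr5g029910* went from 8.60 ± 1.17 to 10.6 ± 0.209 TPM in SD (log2 0.20, edgeR adjusted p = 0.121) and from 9.07 ± 0.511 to 7.54 ± 0.232 TPM in LD (log2 -0.27, edgeR adjusted p = 0.0425; SD, n = 3).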

How the results depend on the processing

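From ZT2 to ZT4, no median ratio and no called change of the genes named by the fixed rule changed direction. The split of the LD against SD calls at ZT4 did. It went from 14 higher and 17 lower in LD to 15 and 12 with DESeq2's size factors, and to 16 and 13 with DESeq2. A call that also required a fold above 2 and a mean normalised count above 10 lowered most counts. It left 11 members higher and 3 lower at ZT4 than at ZT2 in SD, and 7 higher and 3 lower in LD. It left 89 members lower at ZT4 than at ZT0 in SD and 76 in LD, 89 lower at ZT2 than at ZT0 in LD, and 0, 0 and 1 different between LD and SD at ZT0, ZT2 and ZT4. With a pseudocount of 5 TPM in the rule, which shared 80 of 150 members, 33 were lower at ZT4 than at ZT2 in SD, and 53 and 51 differed between LD and SD at ZT0 and ZT2. With 0.5 TPM (116 shared), 17 differed at ZT4.

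Leaving out 1 library at a time gave 147 to 148 members lower at ZT2 than at ZT0 in SD and 138 to 147 in LD. It gave 38 to 49 higher and 16 to 20 lower at ZT4 than at ZT2 in SD, and 29 to 40 higher and 16 to 30 lower in LD, the 16 without LD ZT2 replicate 3. It gave 131 to 138 lower at ZT4 than at ZT0 in SD and 124 to 129 in LD. Between LD and SD it gave 22 to 32 at ZT0, 18 to 28 at ZT2 and 19 to 34 at ZT4, the 19 without SD ZT4 replicate 3. Without SD ZT0 replicate 2, 22 differed at ZT0.

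The median log2 ratio of mean TPM from ZT2 to ZT4 was 0.215 in SD with a pseudocount of 1, 0.274 with 0.1 and 0.108 with 5, and 0.192 to 0.244 with 1 library left out. In LD it was 0.038, with 0.005 to 0.074. Causes of these shifts were not tested, beyond the stricter call itself.

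Same-numbered replicates correlated between -0.263 and 0.354 in their deviations from group means, and 0 of 15 pairs of groups had all correlations over 0.1. With the replicate number as a block, 44 members were higher and 20 lower at ZT4 than at ZT2 in SD, and 35 and 25 in LD. DESeq2 and the other settings kept each count within 1.5 times its reported value. Low counts limit the scarcest members.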
